A study of Mus musculus with 6 samples.

Results

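Transforming growth factor beta (TGF-beta) genes were followed across the cell classes of the mouse left ventricle. The 10 genes were the ligands Tgfb1, Tgfb2 and Tgfb3, the receptors Tgfbr1, Tgfbr2 and Tgfbr3, the latent binding proteins Ltbp1 and Ltbp2, and the Smad proteins Smad3 and Smad7. They were picked by symbol from the 33696 genes of the count tables. RNA of single nuclei from frozen left ventricles had been captured in droplets (10x Genomics). The mice were males, 12 weeks old, and gave 3 groups of 2 libraries, 6 in all. The WT-CD group held wild-type littermates on a control diet (CD). The R403Q-CD group held mice with the R403Q mutation in cardiac myosin heavy chain (genotype label Myh6+/R404Q), a model of hypertrophic cardiomyopathy, on the same diet. The R403Q-EMPA group held mice of that genotype whose diet contained the SGLT2 inhibitor empagliflozin at 0.15 mg per g, about 15 mg per kg body weight. The drug diet began at 9 to 10 weeks of age. By the methods, mice taken for RNA sequencing were killed after 2 weeks on the diet, which fits the age at sampling, while the protocol text of these libraries names only a longer feeding period. The point mutation cannot be read from gene counts, so the genotype labels were not checked here. Replicates 1 and 2 of each group were named in the order of deposition. Whether each library came from a separate animal was not stated, so p-values measure only the spread between these libraries.

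TGF-beta is secreted as an inactive complex with its own propeptide, and latent binding proteins tie that complex to the extracellular matrix. After release by integrins, thrombospondin or proteases, the ligand binds the type II receptor TGFBR2, which phosphorylates the type I receptor TGFBR1. TGFBR1 then phosphorylates Smad2 and Smad3, which enter the nucleus with Smad4, and Smad7 acts as an inhibitor in a feedback loop. In the heart the pathway is known for the activation of fibroblasts, the deposition of collagen and the transition of endocardial cells to mesenchyme during valve formation.

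After filtering, 46005 nuclei of 69249 barcodes remained, with 6409 to 9514 nuclei and 23624326 to 37411887 unique molecular identifiers (UMIs) per library. Clustering gave 25 clusters, and 10 classes named from markers had at least 20 nuclei in every library. They ranged from 245 epicardial-like to 14145 fibroblast-like nuclei. All markers of the cardiomyocyte-like class were detected in that class in every library, and the same held for the fibroblast, endothelial and pericyte lists. R403Q-EMPA replicate 1 stood apart: it supplied 63.0% of a fibroblast-like cluster led by Cilp, Thbs4, Ltbp2 and Postn, and 48.6% of an endothelial-like cluster led by Nr5a2 and Alox12. A cardiomyocyte-like cluster led by Ryr3 held 54.8% and 43.9% of the cardiomyocyte-like nuclei in the R403Q-EMPA libraries, 14.3% and 24.6% in R403Q-CD and 6.58% and 5.75% in WT-CD. The heat shock genes Hspa1a and Hspa1b together were higher in both R403Q-EMPA libraries than in the 4 other libraries in 10 of 10 classes, at 4.16 to 109.6 against 0 to 9.66 CPM (the UMIs of a gene scaled to the total UMIs of its class in a library, the usual CPM unit). These genes are induced by heat and other cell stress, and their part in the differences below was not tested. Any pair of libraries shared 23 to 56 cell barcodes.

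Levels are given in CPM of the class, as mean ± SD over the 6 libraries. They rank classes within a gene only, since transcript length and capture differ between genes. Classes were built by clustering the same nuclei, so these levels are a description with no test.

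Among the ligands, Tgfb1, the form best known from immune cells and platelets, was highest in lymphatic endothelial-like nuclei at 124 ± 16.1 CPM, lymphoid-like nuclei at 122 ± 38.5 CPM and myeloid-like nuclei at 121 ± 14.6 CPM. The library ranges of these classes overlapped, and the myeloid-like range lay above that of endothelial-like nuclei, which had 74.2 ± 9.84 CPM. Fibroblast-like nuclei had 35.7 ± 13.9 CPM and cardiomyocyte-like nuclei, at the bottom, 5.04 ± 1.43 CPM. Because endothelial-like nuclei were numerous, they held 36.4% of all Tgfb1 UMIs.

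Tgfb2, the form known for its role in heart valve development, was also highest in lymphatic endothelial-like nuclei at 149 ± 30.8 CPM. Fibroblast-like nuclei followed with 117 ± 10.8 CPM, then smooth muscle-like nuclei with 107 ± 50.8 CPM, and each overlapped its neighbour in the order. Endothelial-like nuclei had the lowest mean of the 10 classes at 17.7 ± 5.90 CPM, but not by a clear margin. The largest myeloid-like cluster averaged 17.3 ± 6.95 CPM. Pericyte-like and cardiomyocyte-like nuclei had 70.7 ± 37.7 and 63.8 ± 46.8 CPM, and their libraries spread widely, from 27.4 to 130.1 CPM and from 26.7 to 157 CPM.

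Tgfb3 had the narrowest distribution of the ligands. Smooth muscle-like nuclei had 198 ± 82.0 CPM and lay above every other class, followed by lymphatic endothelial-like nuclei with 61.1 ± 10.8 CPM, pericyte-like nuclei with 33.8 ± 5.55 CPM and fibroblast-like nuclei with 30.9 ± 4.05 CPM. Cardiomyocyte-like and myeloid-like nuclei were close to 0, at 0.904 ± 0.374 and 1.14 ± 1.30 CPM.

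UMIs of all 3 receptors were counted in every class. Tgfbr1, the type I receptor kinase, was highest in myeloid-like nuclei at 499.9 ± 105 CPM and fibroblast-like nuclei at 388 ± 48.4 CPM, whose ranges overlapped, and lowest in lymphatic endothelial-like nuclei at 67.4 ± 14.9 CPM. Tgfbr2, the type II receptor that binds the ligand, had nearly the reverse place in lymphatic endothelial-like nuclei, which were highest at 755 ± 90.0 CPM. Myeloid-like nuclei had 655 ± 146 CPM, and cardiomyocyte-like nuclei were lowest at 84.4 ± 13.9 CPM. Tgfbr3, the co-receptor betaglycan that presents TGF-beta2 to the signalling receptors, was highest in fibroblast-like nuclei at 859.7 ± 131 CPM, above the range of every other class. Myeloid-like nuclei, which were high for both signalling receptors, had only 17.8 ± 10.8 CPM of Tgfbr3, below the range of the other 9 classes. Summed fibroblast markers, 6 or 7 of 7 detected, were 351 to 888 CPM in myeloid-like nuclei and 12886 to 18199 CPM in fibroblast-like nuclei, and since free RNA and expression cannot be told apart at this Tgfbr3 level, it is not read as expression.

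Ltbp1, which anchors the latent complex, was high in smooth muscle-like (970.4 ± 337 CPM), endocardial-like (949 ± 124 CPM), fibroblast-like (810.0 ± 154 CPM) and pericyte-like nuclei (638 ± 81.5 CPM), whose ranges overlapped in that order. It was lowest in myeloid-like nuclei at 12.7 ± 6.12 CPM. Ltbp2, a matrix protein of the same family that is not known to bind latent TGF-beta, was a fibroblast gene here. Fibroblast-like nuclei held 90.1% of its 2695 UMIs, with a mean of 53.4 ± 84.1 CPM that rested on 1 library, and no other class exceeded a mean of 3.35 CPM. Lymphoid-like and smooth muscle-like nuclei had 0 UMIs of Ltbp2.

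Smad3, the signal transducer, was highest in fibroblast-like nuclei at 241 ± 22.5 CPM, and its range there overlapped those of lymphoid-like (182 ± 66.4 CPM) and myeloid-like nuclei (161 ± 58.3 CPM). Pericyte-like nuclei were lowest at 21.8 ± 7.34 CPM. Smad7, the inhibitor, was highest in endocardial-like nuclei at 344 ± 54.3 CPM, followed by endothelial-like nuclei at 221 ± 54.2 CPM. Lymphoid-like libraries had 125 to 195 CPM and overlapped the endothelial-like libraries, which began at 177 CPM. Lymphatic endothelial-like nuclei were lowest at 7.02 ± 6.98 CPM. Endothelial-like and endocardial-like nuclei together with fibroblast-like nuclei held 41.7%, 20.1% and 22.0% of Smad7 UMIs.

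**Figure D1:**
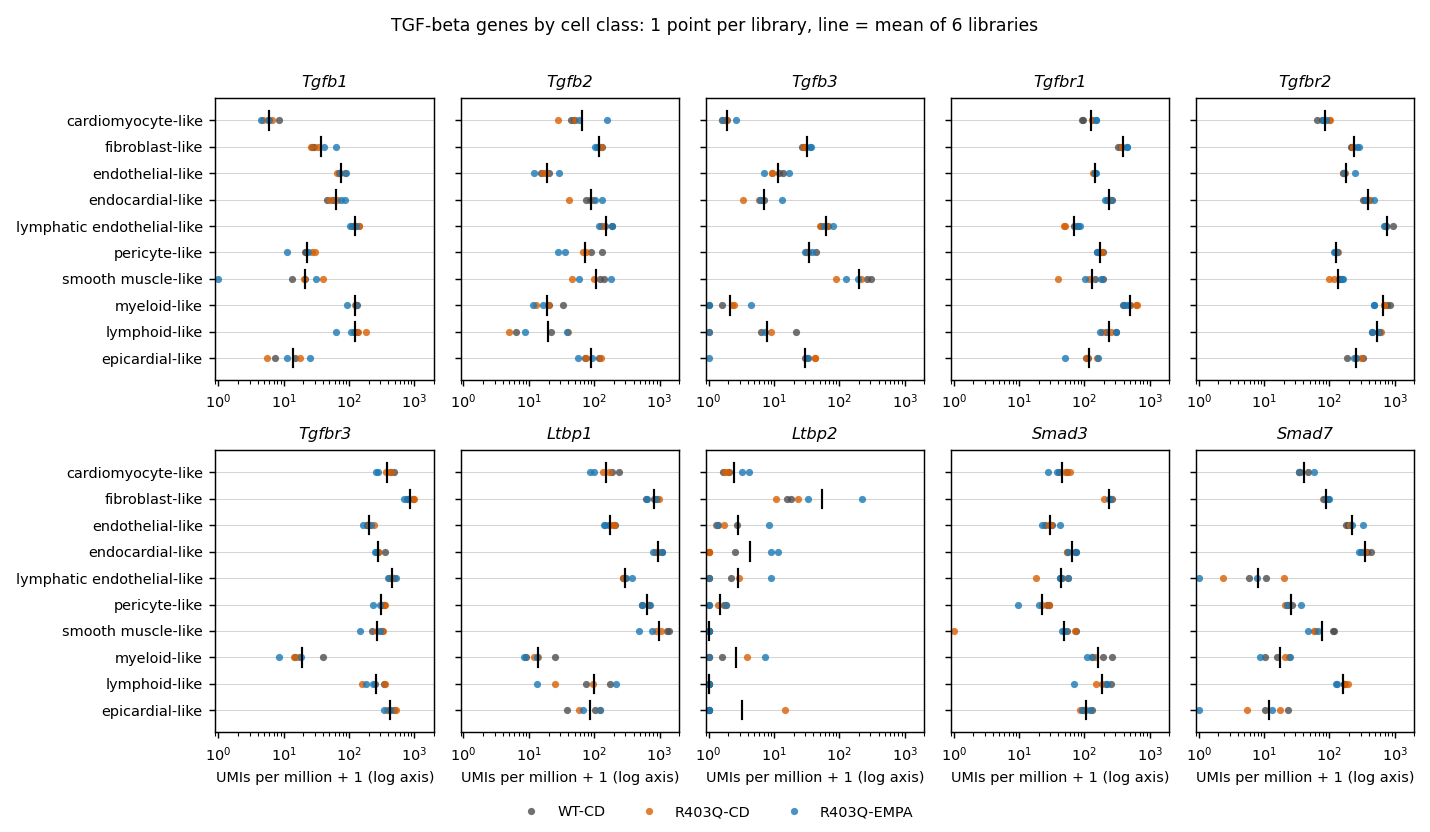
Level of each gene (CPM plus 1, log axis) in the 10 classes, with 1 point per library coloured by group and a line at the mean of the 6 libraries. Tgfb3 peaks in smooth muscle-like nuclei (198 CPM), Tgfbr3 in fibroblast-like nuclei (859.7 CPM), Smad7 in endocardial-like nuclei (344 CPM), and Ltbp2 is near 0 outside fibroblast-like nuclei.

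Levels also varied between clusters of a class, again as a description. The members had been left out of the genes used for clustering. In the fibroblast-like cluster led by Cilp, Thbs4 and Postn, genes of activated fibroblasts and their matrix, Ltbp2 averaged 407 ± 143 CPM (6 libraries, 238 to 630.3 CPM). The other 4 fibroblast-like clusters averaged 4.00 to 29.6 CPM. The same cluster had the highest fibroblast means of Tgfb1 (94.1 ± 24.6 CPM against 21.8 to 41.9 CPM), Tgfb3 (51.5 ± 9.78 against 27.8 to 32.2 CPM), Tgfbr1 (574 ± 115 against 305 to 394 CPM) and Smad7 (130.3 ± 24.2 against 63.7 to 90.4 CPM). It had the lowest means of Tgfbr3 (614 ± 118 against 848 to 1004 CPM) and Ltbp1 (542 ± 89.8 against 652 to 913 CPM). Smad3, at 232 ± 21.2 CPM, lay within the 219 to 257 CPM of the others. The library ranges overlapped with those of other fibroblast-like clusters for several of these genes, Smad7 (89.2 CPM at the lowest here, up to 104.5 CPM elsewhere) and Tgfb3 (37.2 and 43.9 CPM) among them. In the WT-CD libraries, where the cluster held 61 and 29 nuclei, Ltbp2 stood at 337 and 524 CPM there.

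Among endothelial-like clusters, the one led by Gja5, which encodes a connexin of arterial endothelium, had 146 ± 61.9 CPM of Tgfb2, 592 ± 105 CPM of Smad7 and 75.2 ± 30.2 CPM of Smad3. Within that cluster Tgfb2 was 84.0 and 75.2 CPM in the R403Q-EMPA libraries, from 57 and 8 UMIs, and 140.0 to 242 CPM in the other 4 libraries, a difference that was not tested. The cluster led by Nr5a2 and Alox12 had 54.7 ± 20.5 CPM of Tgfb2 and 403.3 ± 49.6 CPM of Smad7. The clusters led by Car4, by Kirrel3 and by Kit had 4.48 to 5.11 CPM of Tgfb2 and 108 to 208 CPM of Smad7. In the Ryr3 cardiomyocyte-like cluster, Tgfb2 averaged 107 ± 50.3 CPM and Ltbp1 99.9 ± 29.9 CPM, against 33.1 ± 7.23 and 172 ± 50.3 CPM in the largest cardiomyocyte-like cluster. Tgfbr3 had 277 ± 50.8 CPM in the former and 418 ± 57.3 CPM in the latter.

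**Figure D2:**
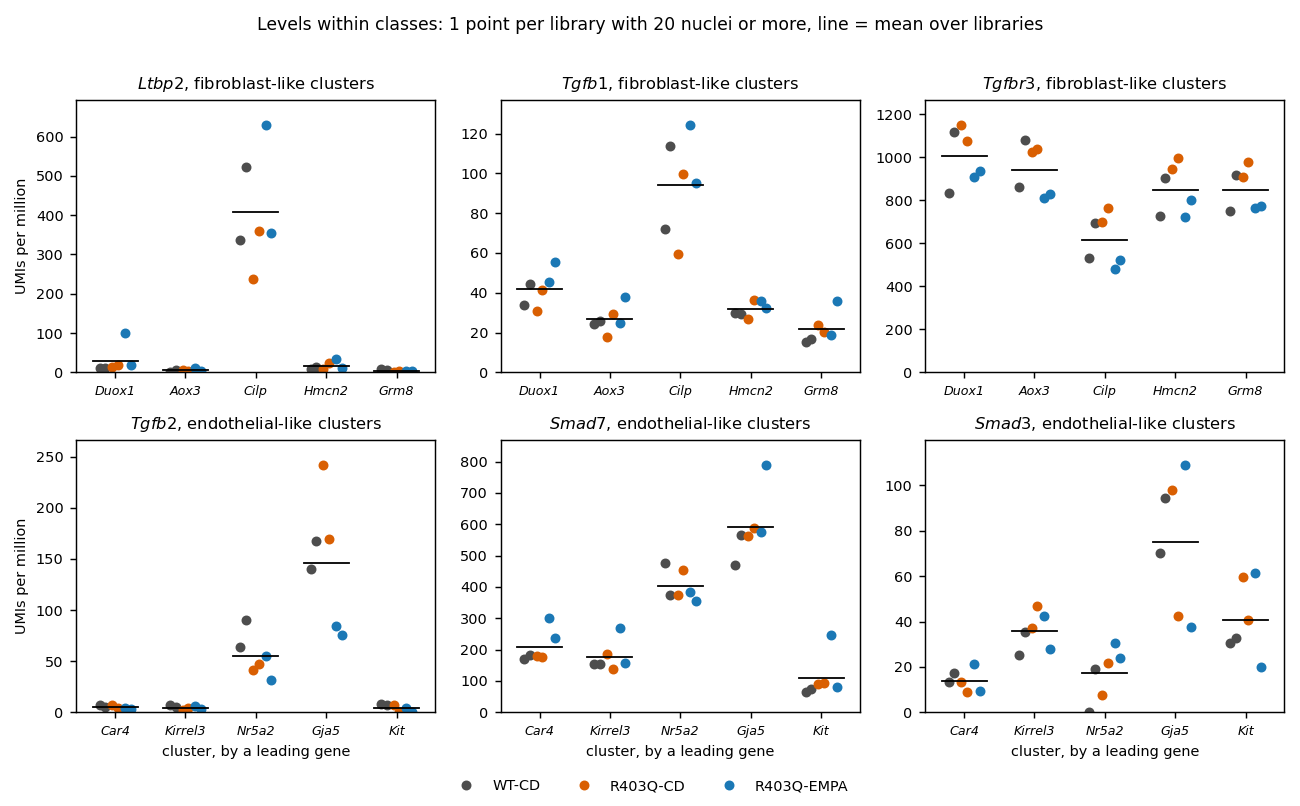
CPM of 6 gene and class pairs in the clusters of the fibroblast-like class (upper row) and the 5 largest clusters of the endothelial-like class (lower row), named by a leading gene, with 1 point per library of 20 nuclei or more and a line at the mean. Ltbp2 and Tgfb1 stand highest and Tgfbr3 lowest in the Cilp cluster in the mean over libraries, and Tgfb2, Smad7 and Smad3 stand highest in the Gja5 cluster.

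The groups pose 3 questions: whether the mutation moved these genes on control diet, whether empagliflozin moved them in mutant mice, and how treated mutants differed from wild-type mice, a comparison that mixes genotype and treatment. R403Q-CD libraries serve in the first and second of these comparisons, and the other groups are shared likewise, so the comparisons are not independent. Of the 100 pairs of gene and class, 86 passed the filter on low counts and 14 did not. A pair was called changed at an adjusted p under 0.05 in edgeR's quasi-likelihood test, adjusted over all genes of the class.

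Between R403Q-CD and WT-CD, 0 of 86 pairs were called by edgeR and 0 by DESeq2, and 11 had an unadjusted p under 0.05. Over all genes tested, edgeR called 0.0905% in cardiomyocyte-like, 0.0643% in epicardial-like and 0.00925% in myeloid-like nuclei, and 0% in each of the other 7 classes. Few genes of any kind were called in this comparison. Between R403Q-EMPA and R403Q-CD, 2 of 86 pairs were called, pericyte Tgfb2 and endocardial Ltbp2, and 22 had an unadjusted p under 0.05. Endocardial Ltbp2 passed the filter on low counts through the R403Q-EMPA libraries alone, so its call adds nothing to its counts. The share of all genes called was 0.825% in endocardial-like, 0.588% in pericyte-like, 0.338% in fibroblast-like, 0.251% in cardiomyocyte-like, 0.249% in endothelial-like, 0.198% in lymphoid-like, 0.171% in epicardial-like, 0.0925% in myeloid-like, 0.0533% in smooth muscle-like and 0.0449% in lymphatic endothelial-like nuclei. Between R403Q-EMPA and WT-CD, 4 of 86 pairs were called, pericyte Tgfb2 and cardiomyocyte Ltbp1, Tgfbr1 and Tgfbr3, and 25 had an unadjusted p under 0.05. Here the share of all genes was 4% in cardiomyocyte-like, 2.14% in endocardial-like, 1.63% in pericyte-like, 1.23% in fibroblast-like, 0.819% in endothelial-like, 0.49% in myeloid-like, 0.346% in smooth muscle-like, 0.257% in epicardial-like, 0.0449% in lymphatic endothelial-like and 0.0198% in lymphoid-like nuclei. In cardiomyocyte-like nuclei 3 of 10 members were called against 4% of all genes, and in pericyte-like nuclei 1 of 9 tested against 1.63%. An unadjusted p under 0.05 was found for 12.8%, 25.6% and 29.1% of the 86 pairs in these comparisons, in order. The shares over all genes and the 10 classes were 4.33%, 9.71% and 12.7%. The members were chosen with earlier results of these data known, so these shares are a description.

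**Figure D3:**
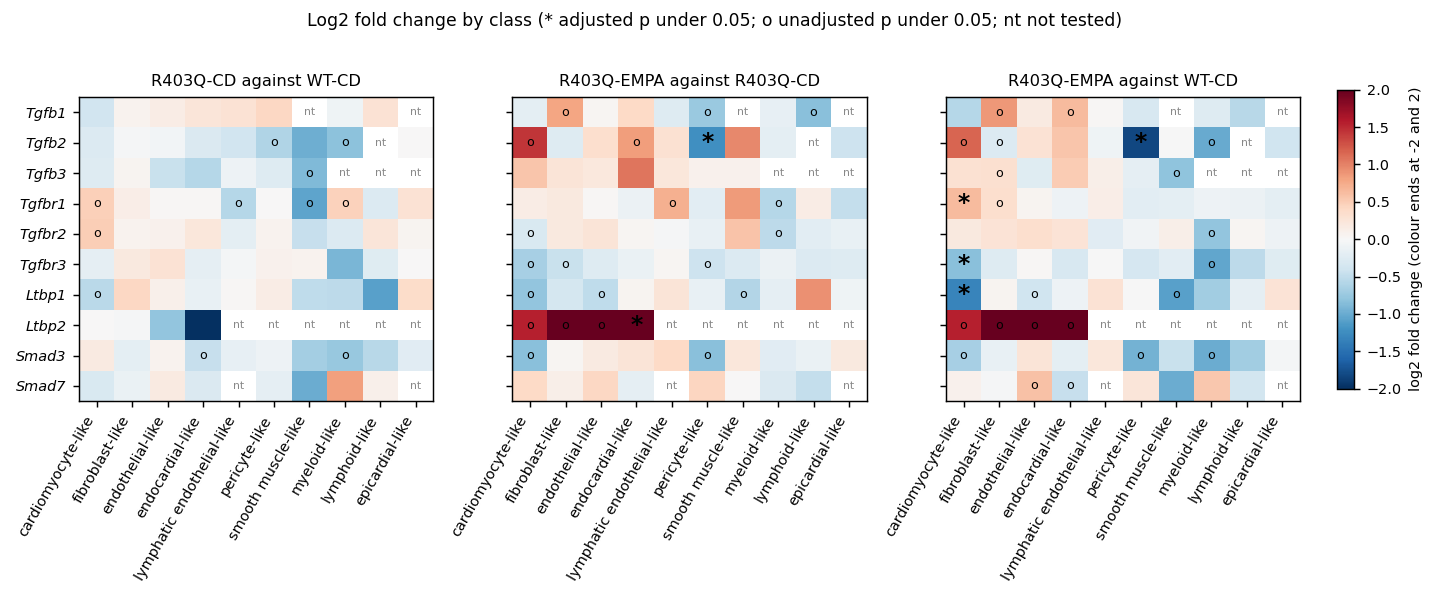
Log2 fold change of each gene (rows) in each class (columns) for the 3 comparisons, with colour ending at -2 and 2, a star at an adjusted p under 0.05, a circle at an unadjusted p under 0.05 and nt where a pair was not tested. No pair is starred for the mutation, 2 are starred for R403Q-EMPA against R403Q-CD and 4 for R403Q-EMPA against WT-CD. The endocardial Ltbp2 colours rest on 0 to 20 UMIs per library, and its star adds nothing to these counts.

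Tgfb2 in pericyte-like nuclei showed the clearest change of a ligand. The WT-CD libraries had 130.1 and 89.9 CPM, the R403Q-CD libraries 67.5 and 74.8 CPM and the R403Q-EMPA libraries 34.8 and 27.4 CPM. The 3 groups did not overlap. Tgfb2 fell by 1.83 on the log2 scale from WT-CD to R403Q-EMPA (SE 0.213, adjusted p = 0.000208) and by 1.23 from R403Q-CD to R403Q-EMPA (SE 0.221, adjusted p = 0.0141). The value for R403Q-CD against WT-CD was -0.60 (SE 0.174, adjusted p = 0.999) and was not called. The call against WT-CD held in each of 11 alternative analyses, with an adjusted p of at most 0.00449. The call against R403Q-CD held in 7 of 11 and was lost whenever a R403Q-CD or R403Q-EMPA library was left out, with an adjusted p of 0.0818 to 0.222. Summed fibroblast markers in these nuclei, with 7 of 7 detected in every library, were 4066 to 4330 CPM in WT-CD, 4148 to 4440 CPM in R403Q-CD and 3653 to 4109 CPM in R403Q-EMPA. Summed cardiomyocyte markers, 8 of 8 detected, were 1255 to 1467, 2038 to 2134 and 2299 to 2396 CPM in the same order and did not overlap between the groups. Summed endothelial markers, also 8 of 8, were 154 to 164, 145 to 165 and 199 to 314 CPM. Summed pericyte markers were 14114 to 14936, 13762 to 13938 and 12114 to 12788 CPM. The part of these markers in the Tgfb2 difference was not tested.

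In cardiomyocyte-like nuclei as a whole Tgfb2 had values in the other direction. WT-CD libraries had 48.8 and 42.6 CPM, R403Q-CD libraries 26.7 and 49.4 CPM, and R403Q-EMPA libraries 157 and 58.3 CPM. Both treated libraries were above the other 4, and replicate 1 was far above replicate 2. The log2 difference was 1.43 against R403Q-CD (SE 0.390, adjusted p = 0.178) and 1.16 against WT-CD (SE 0.389, adjusted p = 0.140), neither of which was called. Without R403Q-EMPA replicate 1 these were 0.59 and 0.32, and without the Ryr3 cluster 0.99 and 0.40. In the largest cardiomyocyte-like cluster alone, Tgfb2 was 36.9 and 27.0 CPM in R403Q-EMPA, 22.5 and 32.1 CPM in R403Q-CD and 39.9 and 40.2 CPM in WT-CD. Treated libraries were not the highest there. In the Ryr3 cluster it was 192 and 87.8 CPM in R403Q-EMPA, 49.7 and 89.1 CPM in R403Q-CD and 139 and 86.2 CPM in WT-CD, and the groups overlapped. Endocardial-like nuclei gave 0.84 against R403Q-CD (adjusted p = 0.298), from 95.1 and 40.7 to 132 and 103 CPM. Other log2 differences of Tgfb2 with an unadjusted p under 0.05 were -0.81 in myeloid-like nuclei with the mutation, -1.01 in myeloid-like nuclei and -0.27 in fibroblast-like nuclei between R403Q-EMPA and WT-CD. None of these was called, with adjusted p values of 0.341 to 0.996.

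Tgfb1 was not called in any class, and between R403Q-EMPA and WT-CD its log2 difference was largest in fibroblast-like nuclei. WT-CD libraries had 26.4 and 28.2 CPM, R403Q-CD libraries 24.99 and 32.6 CPM, and R403Q-EMPA libraries 61.7 and 40.5 CPM. Both treated libraries exceeded the other 4, replicate 1 by more. The log2 difference was 0.79 against R403Q-CD (SE 0.210, adjusted p = 0.172) and 0.86 against WT-CD (SE 0.209, adjusted p = 0.0979), and neither was called by edgeR. DESeq2 gave an adjusted p of 0.0304 for the latter, within a range of 8.5e-05 to 0.561 over all alternatives. Without the Cilp cluster, in which Tgfb1 was highest, the value against WT-CD was 0.37. The remaining Tgfb1 results with an unadjusted p under 0.05 were 0.64 in endocardial-like nuclei between R403Q-EMPA and WT-CD, -0.75 in pericyte-like and -0.84 in lymphoid-like nuclei between R403Q-EMPA and R403Q-CD, with adjusted p values of 0.130, 0.474 and 0.593. Summed cardiomyocyte markers in lymphoid-like nuclei, 8 of 8 detected in every library, were 4446 to 16927 CPM in R403Q-EMPA, 2192 to 2772 CPM in R403Q-CD and 3983 to 4383 CPM in WT-CD, and their part in the lymphoid value was not tested.

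Tgfb3 had 0 called pairs in any comparison. In smooth muscle-like nuclei, where it was highest, WT-CD libraries had 265 and 305 CPM, R403Q-CD libraries 88.3 and 212 CPM and R403Q-EMPA libraries 192 and 125 CPM. Both WT-CD libraries were above the other 4. The log2 differences were -0.89 for the mutation and -0.80 for R403Q-EMPA against WT-CD, with adjusted p values of 0.872 and 0.674 from 31 to 57 nuclei per library. Summed smooth muscle markers in this class, 7 of 7 detected in every library, were 11113 to 12545 CPM in WT-CD, 8189 to 8733 CPM in R403Q-CD and 7295 to 7584 CPM in R403Q-EMPA, and their part in the values of this class was not tested. In fibroblast-like nuclei R403Q-EMPA differed from WT-CD by 0.32 (adjusted p = 0.328).

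**Figure D4:**
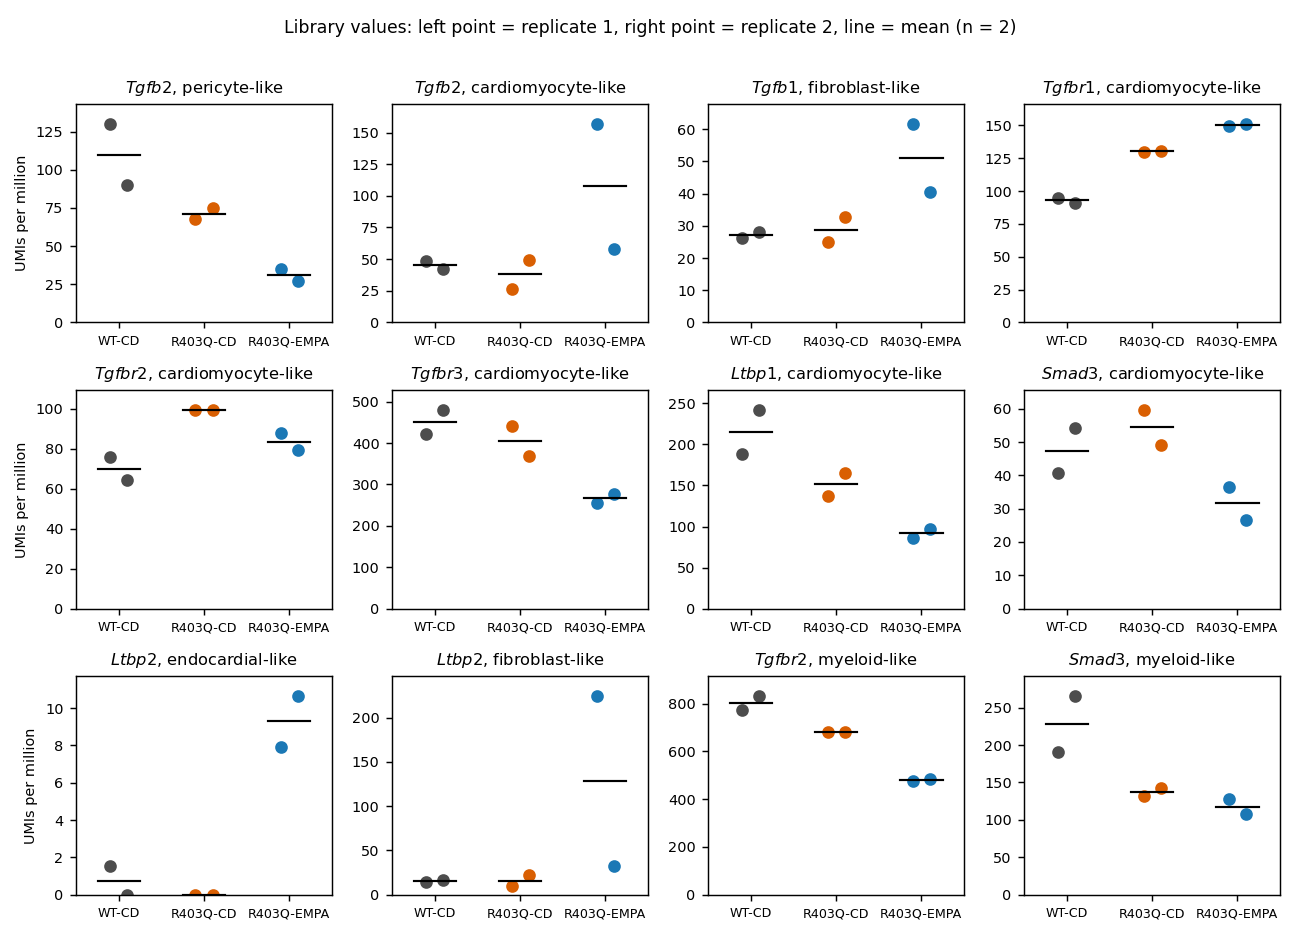
CPM of the class in each library for 12 pairs of gene and class, with the left point for replicate 1, the right point for replicate 2 and a line at the mean of 2 libraries per group. Pericyte Tgfb2 steps down from WT-CD (130.1 and 89.9 CPM) to R403Q-EMPA (34.8 and 27.4 CPM), cardiomyocyte Tgfbr1 steps up, and the fibroblast Ltbp2 and cardiomyocyte Tgfb2 means of R403Q-EMPA rest mostly on replicate 1.

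The receptors were called in cardiomyocyte-like nuclei only, Tgfbr1 and Tgfbr3 between R403Q-EMPA and WT-CD. Cardiomyocyte Tgfbr1 was 94.7 and 90.9 CPM in WT-CD, 130.1 and 130.3 CPM in R403Q-CD and 149 and 151 CPM in R403Q-EMPA. The groups did not overlap and replicates lay close together. Tgfbr1 rose by 0.63 on the log2 scale from WT-CD to R403Q-EMPA (SE 0.142, adjusted p = 0.0419). With the mutation alone the value was 0.48 (SE 0.142, adjusted p = 0.414). The call for R403Q-EMPA against WT-CD held in 6 of 12 alternatives, and without the Ryr3 cluster the value was 0.31 (adjusted p = 0.353).

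Cardiomyocyte Tgfbr3 was 422 and 480.1 CPM in WT-CD, 440.3 and 369 CPM in R403Q-CD and 256 and 278 CPM in R403Q-EMPA. Treated libraries lay below the other 4, which overlapped among themselves. Tgfbr3 fell by 0.83 on the log2 scale between WT-CD and R403Q-EMPA (SE 0.194, adjusted p = 0.0463). Against R403Q-CD the value was -0.66 (SE 0.194, adjusted p = 0.207). The call held in 5 of 12 alternatives, and without the Ryr3 cluster the value was -0.56 (adjusted p = 0.169). Tgfbr3 was highest in fibroblast-like nuclei, and summed fibroblast markers in cardiomyocyte-like nuclei, 7 of 7 detected, were 1437 CPM in both WT-CD libraries and 944 to 1160 CPM in R403Q-EMPA. Their part in the Tgfbr3 difference was not tested.

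Cardiomyocyte Tgfbr2 was 75.7 and 64.6 CPM in WT-CD, 99.5 and 99.4 CPM in R403Q-CD and 88.1 and 79.2 CPM in R403Q-EMPA. The R403Q-CD libraries lay above both other groups, and the R403Q-EMPA libraries lay between. The log2 differences were 0.50 with the mutation (SE 0.135, adjusted p = 0.340) and -0.31 with treatment (SE 0.134, adjusted p = 0.382), and neither was called.

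Tgfbr2 was lowest in R403Q-EMPA in myeloid-like nuclei, most of them macrophages by their leading genes F13a1, Cd163 and Adgre1. It was 772 and 832 CPM in WT-CD, 683 and 680.3 CPM in R403Q-CD, and 478 and 484 CPM in R403Q-EMPA. The groups did not overlap, and the log2 difference of R403Q-EMPA was -0.79 against WT-CD (SE 0.156, adjusted p = 0.0505) and -0.52 against R403Q-CD (SE 0.156, adjusted p = 0.397). The first of these missed the threshold in edgeR and passed it in DESeq2 (adjusted p = 0.00282), within a range of 0.00095 to 0.26 over the alternatives. Summed lymphoid markers in myeloid-like nuclei, 3 to 7 of 8 detected, were 1427 to 1506 CPM in WT-CD, 1129 to 1210 CPM in R403Q-CD and 485 to 1068 CPM in R403Q-EMPA and did not overlap between the groups. Summed cardiomyocyte markers, 8 of 8 detected, were 1464 to 1591, 1885 to 1949 and 1802 to 2437 CPM in the same order. The part of these markers in the myeloid values was not tested. Tgfbr1 was 386 and 503 CPM in WT-CD, 619 and 631 CPM in R403Q-CD and 409 and 451 CPM in R403Q-EMPA. The R403Q-CD libraries were highest and the other groups overlapped, with log2 differences of 0.46 with the mutation and -0.57 with treatment (adjusted p = 0.996 and 0.436).

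Other receptor results with an unadjusted p under 0.05 were spread over 5 classes and were not called. Tgfbr1 gave -0.57 with the mutation and 0.70 with treatment in lymphatic endothelial-like nuclei, -1.05 with the mutation in smooth muscle-like nuclei and 0.33 between R403Q-EMPA and WT-CD in fibroblast-like nuclei. Tgfbr3 gave -0.45 and -0.42 with treatment in fibroblast-like and pericyte-like nuclei, and -1.04 in myeloid-like nuclei between R403Q-EMPA and WT-CD, where its level was low and the libraries of the groups overlapped. In fibroblast-like nuclei, where Tgfbr3 was highest, the libraries had 757 and 957 CPM in WT-CD, 963 and 1001 CPM in R403Q-CD and 683 and 798 CPM in R403Q-EMPA, and WT-CD overlapped R403Q-EMPA.

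Of the latent binding proteins, Ltbp1 fell in cardiomyocyte-like nuclei between WT-CD and R403Q-EMPA. WT-CD libraries had 189 and 242 CPM, R403Q-CD libraries 138 and 166 CPM and R403Q-EMPA libraries 86.4 and 96.6 CPM. The 3 groups did not overlap. The log2 difference between R403Q-EMPA and WT-CD was -1.32 (SE 0.205, adjusted p = 0.0103), and it was called in 11 of 12 alternatives. Without R403Q-EMPA replicate 1 it was -1.20 and was not called (adjusted p = 0.102), and without the Ryr3 cluster it was -0.96 (adjusted p = 0.0438). The differences with the mutation (-0.53, SE 0.202, adjusted p = 0.619) and with treatment (-0.78, SE 0.203, adjusted p = 0.156) were not called. Summed fibroblast markers in cardiomyocyte-like nuclei, all 7 detected in every library, were 1437 CPM in both WT-CD libraries, 1122 to 1204 CPM in R403Q-CD and 944 to 1160 CPM in R403Q-EMPA. Ltbp1 was higher in fibroblast-like than in cardiomyocyte-like nuclei, and the part of these markers in the difference was not tested.

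Endothelial-like nuclei had lower Ltbp1 in both R403Q-EMPA libraries (141 and 145 CPM) than in R403Q-CD (202 and 193 CPM) and WT-CD (169 and 206 CPM). The log2 differences were -0.50 and -0.40, with adjusted p values of 0.344 and 0.347. Smooth muscle-like nuclei gave -0.58 against R403Q-CD and -1.09 against WT-CD, with adjusted p values of 0.977 and 0.103. Fibroblast-like nuclei, which held 52.7% of Ltbp1 UMIs, had 613 and 814 CPM in WT-CD, 992 and 913 CPM in R403Q-CD and 639 and 889 CPM in R403Q-EMPA. Both R403Q-CD libraries were above the other 4, which overlapped, and no comparison was called.

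Ltbp2 was dominated by R403Q-EMPA replicate 1. In fibroblast-like nuclei it had 224 CPM there and 32.3 CPM in R403Q-EMPA replicate 2, against 14.9 and 17.1 CPM in WT-CD and 9.69 and 22.1 CPM in R403Q-CD. Both treated libraries were above the other 4. The log2 difference was 2.97 against R403Q-CD (SE 0.730, adjusted p = 0.141) and 2.96 against WT-CD (SE 0.723, adjusted p = 0.100), and neither was called. Without R403Q-EMPA replicate 1 the values were 1.00 and 0.99, and without replicate 2 of that group they were 3.76 and 3.74. With no filter on low counts both were called, at SE 0.183 and 0.182, far below those of the main fit. Without the Cilp cluster the values were 1.22 and 1.36. That cluster held 25.9% and 5.15% of fibroblast-like nuclei in the R403Q-EMPA libraries and 1.12% to 1.92% in the other 4 libraries. Within it, Ltbp2 was 630.3 and 354 CPM in R403Q-EMPA, 238 and 359 CPM in R403Q-CD and 337 and 524 CPM in WT-CD, and the groups overlapped. Postn, which encodes the matrix protein periostin and led the same cluster, was 462 and 68.6 CPM over all fibroblast-like nuclei in R403Q-EMPA and 20.03 to 57.4 CPM in the others.

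Endocardial Ltbp2 was called between R403Q-EMPA and R403Q-CD (adjusted p = 0.0465). It rested on 20 and 18 UMIs in the R403Q-EMPA libraries, 0 and 0 in R403Q-CD and 3 and 0 in WT-CD, that is 7.93 and 10.6 CPM against 0 in R403Q-CD. With 3 UMIs over the group as the floor for R403Q-CD, it was at least 11.3-fold higher in R403Q-EMPA. Against WT-CD the ratio was 12.5 (95% exact interval 3.97 to 63.4, counting error only), with an adjusted p of 0.0597. The gene passed the filter on low counts through the R403Q-EMPA libraries alone, so the call adds nothing to these counts. It held in 6 of 11 alternatives. In the same nuclei Postn was 142 and 34.3 CPM in R403Q-EMPA, 24.4 and 18.5 CPM in R403Q-CD and 47.3 and 10.0 CPM in WT-CD. Summed fibroblast markers were 924 to 980 CPM in R403Q-EMPA, 804 to 858 CPM in R403Q-CD and 677 to 1865 CPM in WT-CD, with 6 or 7 of 7 detected. The part of these genes in the Ltbp2 result was not tested.

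Ltbp2 counts were low in the other large classes. Endothelial-like nuclei had 7.36 CPM in R403Q-EMPA replicate 1 and 0.278 to 1.69 CPM in the other 5 libraries. The log2 differences of 3.14 against R403Q-CD and 2.34 against WT-CD (adjusted p = 0.358 for both) changed sign without that library, to -0.52 and -1.33. Postn in endothelial-like nuclei was 20.5 CPM in that library and 2.29 to 7.26 CPM in the others. Cardiomyocyte-like nuclei had 3.16 and 2.25 CPM in R403Q-EMPA against 0.692 to 1.06 CPM in the other 4 libraries, a log2 difference of 1.56 against each control group (adjusted p = 0.190 and 0.0916). Without R403Q-EMPA replicate 1 these were 1.32 and 1.33. Postn in cardiomyocyte-like nuclei was 7.37 CPM in that library and 0.923 to 2.35 CPM in the others. Its part in the Ltbp2 values was not tested.

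Smad3 was not called in any class. Cardiomyocyte-like nuclei had 40.6 and 54.2 CPM in WT-CD, 59.6 and 49.1 CPM in R403Q-CD and 36.6 and 26.7 CPM in R403Q-EMPA. Treated libraries were the lowest of the 6, with log2 differences of -0.84 against R403Q-CD (SE 0.223, adjusted p = 0.164) and -0.67 against WT-CD (SE 0.225, adjusted p = 0.141). Myeloid-like nuclei had 191 and 265 CPM in WT-CD, 132 and 142 CPM in R403Q-CD and 128 and 107 CPM in R403Q-EMPA. The WT-CD libraries were highest, and the log2 differences from them were -0.76 with the mutation (SE 0.191, adjusted p = 0.996) and -0.99 for R403Q-EMPA (SE 0.200, adjusted p = 0.0558). DESeq2 gave an adjusted p of 0.0236 for the latter, and the range over the alternatives was 0.000161 to 0.26. The lymphoid markers given for Tgfbr2 were highest in the WT-CD libraries of this class too, Smad3 was 182 ± 66.4 CPM (SD, n = 6) in lymphoid-like nuclei, and their part in the Smad3 value was not tested. Pericyte-like nuclei gave -0.84 against R403Q-CD and -0.94 against WT-CD, and endocardial-like nuclei -0.46 with the mutation, with adjusted p values of 0.437, 0.211 and 1.00. In fibroblast-like nuclei, where Smad3 was highest, all libraries lay between 199 and 265 CPM.

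Smad7 was not called in any class. Endothelial-like nuclei had 177 and 192 CPM in WT-CD, 203 and 204 CPM in R403Q-CD, and 327 and 223 CPM in R403Q-EMPA. The groups did not overlap, and replicate 1 of R403Q-EMPA was the highest library. The log2 difference between R403Q-EMPA and WT-CD was 0.58 (SE 0.181, adjusted p = 0.218). R403Q-EMPA replicate 1 supplied 48.6% of the nuclei of the Nr5a2 cluster and 34.2% of those of the Gja5 cluster, which had the highest Smad7 of the class, and their part was not tested. In the Nr5a2 cluster Smad7 was 385 and 356 CPM in R403Q-EMPA and 374 to 477 CPM in the other 4 libraries, and in the Car4 cluster 301 and 236 CPM against 171 to 182 CPM. Endocardial-like nuclei had 436 and 369 CPM in WT-CD, 314 and 349 CPM in R403Q-CD and 308 and 286 CPM in R403Q-EMPA, again without overlap, and the log2 difference between R403Q-EMPA and WT-CD was -0.47 (SE 0.152, adjusted p = 0.155). The difference between these classes was not tested. Summed endocardial markers in endocardial-like nuclei, 7 of 7 detected in every library, were 14182 to 15264 CPM in WT-CD, 14367 to 15390 CPM in R403Q-CD and 9816 to 11240 CPM in R403Q-EMPA, and their part in the Smad7 value was not tested.

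Whether a response differed between classes was tested for the 3 pairs of cardiomyocyte-like, fibroblast-like and endothelial-like nuclei. With the mutation, 0 of 30 tests were called by edgeR, and 10 had an unadjusted p under 0.05. Of all genes, 0.11% differed between cardiomyocyte-like and fibroblast-like nuclei, 0% between endothelial-like and fibroblast-like and 0.169% between endothelial-like and cardiomyocyte-like nuclei. With treatment against R403Q-CD, Tgfb2 and Smad3 differed between endothelial-like and cardiomyocyte-like nuclei. The endothelial minus cardiomyocyte difference was -1.24 for Tgfb2 (SE 0.271, adjusted p = 0.0443) and 0.98 for Smad3 (SE 0.198, adjusted p = 0.0298). Of 6 fits that each left out a library, the Tgfb2 difference was called in 2 (adjusted p up to 0.567) and the Smad3 difference in 1 (adjusted p up to 0.502). Both were lost without R403Q-EMPA replicate 1, R403Q-CD replicate 1 or either WT-CD library, and Smad3 also without R403Q-CD replicate 2. The shares of all genes were 0.677%, 0.403% and 0.789% in the same order of pairs.

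Between R403Q-EMPA and WT-CD, 6 differences were called. The cardiomyocyte minus fibroblast difference was -1.36 for Ltbp1 (SE 0.165, adjusted p = 0.00282) and -1.46 for Tgfb1 (SE 0.319, adjusted p = 0.0429). For Ltbp1, the log2 difference was -1.32 in cardiomyocyte-like and 0.05 in fibroblast-like nuclei. For Tgfb1, it was -0.57 in cardiomyocyte-like and 0.86 in fibroblast-like nuclei. The endothelial minus cardiomyocyte differences were 0.91 for Ltbp1, 0.88 for Smad3, 0.84 for Tgfbr3 and -0.58 for Tgfbr1, with adjusted p values of 0.00521 to 0.0497. The cardiomyocyte minus fibroblast difference of Ltbp1 was called in 6 of 6 fits that left out a library. The endothelial minus cardiomyocyte difference of Ltbp1 was called in 5 and lost without WT-CD replicate 2. The Tgfb1, Tgfbr3 and Smad3 differences were each called in 3 and lost without either WT-CD library or R403Q-EMPA replicate 1, and the Tgfbr1 difference was called in 1, without R403Q-EMPA replicate 2. Of all genes, 2.32% differed between cardiomyocyte-like and fibroblast-like nuclei, 1.08% between endothelial-like and fibroblast-like and 2.85% between endothelial-like and cardiomyocyte-like nuclei.

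The rest of the pathway was described with 5 lists of 79 genes in all, which gave 480 tested pairs of gene and class. With the mutation, 0 of 480 were called by edgeR and 0 by DESeq2, and 37 had an unadjusted p under 0.05. Over all genes and the 10 classes, 0.0170% of tests were called and 4.33% had an unadjusted p under 0.05. The genes with the smallest p in cardiomyocyte-like nuclei were Loxl2, a collagen cross-linking enzyme (log2 -1.99, adjusted p = 0.477), and Furin, the protease that cleaves the TGF-beta precursor (0.58, adjusted p = 0.513). In endothelial-like nuclei they were Furin (0.47) and Bmp4, a bone morphogenetic protein (-0.68). In fibroblast-like nuclei they were Bmpr1b, a receptor of those proteins (-2.27), and Lrrc32, which holds latent TGF-beta at the cell surface (-0.71), with an adjusted p of 1.00 for each of these 4.

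With treatment against R403Q-CD, 3 of 480 pairs were called, all higher, and 101 had an unadjusted p under 0.05, beside 0.321% and 9.71% of all tests. Thbs1, which encodes the latent TGF-beta activator thrombospondin-1, had 11.1 and 8.33 CPM in endothelial-like nuclei of R403Q-EMPA and 1.32 and 1.81 CPM in R403Q-CD. It rose by 2.61 on the log2 scale (adjusted p = 0.0337). The collagen gene Col3a1 rose by 1.52 in epicardial-like nuclei (1402 and 3674 against 926 and 841 CPM, adjusted p = 0.0423). These libraries held 37 and 29 against 27 and 40 such nuclei, and the highest value came from the library with 29. The part of free RNA in this value was not tested. The collagen gene Col1a2 rose by 0.82 in pericyte-like nuclei (163 and 131 against 83.7 and 78.3 CPM, adjusted p = 0.0325). The summed markers given above for Tgfb2 were those of the same nuclei, and their part in the Col1a2 value was not tested. In fibroblast-like nuclei the smallest p values were those of Bmpr1b (log2 3.39, adjusted p = 0.0503) and Pmepa1, a TGF-beta-induced inhibitor of Smad signalling (0.99, adjusted p = 0.0503), and in cardiomyocyte-like nuclei those of Gdf15 (1.87, adjusted p = 0.135) and the integrin gene Itgb8 (2.03, adjusted p = 0.144). Pmepa1 was 275 and 197 CPM in R403Q-EMPA against 107 and 123 CPM in R403Q-CD.

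The list of target genes held the most results below an unadjusted p of 0.05 in this comparison, 39 of 113, of which 2 were called. Its median log2 difference was 0.93 in fibroblast-like, 0.73 in endothelial-like and 0.68 in cardiomyocyte-like nuclei, beside medians of 0.00, 0.01 and 0.01 over all genes tested. The lists were chosen with earlier results of these data known, so these counts and medians are a description with no test. The list of target genes holds Postn and Cilp, which led the cluster that R403Q-EMPA replicate 1 supplied most of. Without that library the medians were 0.40, 0.30 and 0.02, and without the Cilp cluster the fibroblast median was 0.57. Against WT-CD the medians were 0.73, 0.37 and 0.23, and without that library 0.28, -0.16 and -0.38. The list of latent complex and activation genes had 22 of 114 below that p and 1 called. The other ligands and antagonists had 13 of 43, the other receptors 13 of 77, and the other Smads and regulators 14 of 133, with 0 called in each.

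Between R403Q-EMPA and WT-CD, 8 of 480 pairs were called, 7 higher and 1 lower, and 92 had an unadjusted p under 0.05, beside 1.40% and 12.7% of all tests. In cardiomyocyte-like nuclei Gdf15, a stress-induced ligand of the wider family, was called with 64 and 29 UMIs in R403Q-EMPA against 3 and 3 in WT-CD (4.49 and 2.51 against 0.353 and 0.346 CPM, log2 difference 3.22, adjusted p = 0.0156). Furin rose by 0.98 (32.4 and 33.2 against 14.2 and 17.2 CPM, adjusted p = 0.0224), and Bambi, a pseudoreceptor that blocks signalling, by 1.56 (adjusted p = 0.0392). Itgb6, a subunit of an integrin that activates latent TGF-beta, fell by 1.18 (149 and 150.4 against 264 and 372 CPM, adjusted p = 0.0224). The Ryr3 cluster held 54.8% and 43.9% of these nuclei in R403Q-EMPA and 6.58% and 5.75% in WT-CD. Values of Gdf15, Furin, Bambi and Itgb6 without that cluster are not given here. Thbs1 rose by 2.80 in endothelial-like nuclei (adjusted p = 0.0210) and Pmepa1 by 1.43 in pericyte-like nuclei (39.8 and 31.7 against 12.1 and 14.2 CPM, adjusted p = 0.0166). The part of the pericyte-like marker sums given for Tgfb2 in the Pmepa1 value was not tested. The lysyl oxidase gene Lox rose by 1.09 in fibroblast-like nuclei (20.99 and 19.3 against 10.9 and 7.58 CPM, adjusted p = 0.0414). The fibronectin gene Fn1 was called in epicardial-like nuclei (adjusted p = 0.0271) on 27 UMIs against 1 in WT-CD, a ratio of 54.1 with an exact 95% interval of 8.91 to 2214. Gdf15 and Fn1 passed the filter on low counts only with the R403Q-EMPA libraries, so their calls add nothing to these counts, while the other called list genes would have passed it without them or, for Itgb6, without WT-CD. Endothelial Thbs1 did so narrowly, with 7 to 13 UMIs in each of the other 4 libraries.

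Genes whose pattern was most like each member were found from the correlation of log2(CPM + 1) over 60 sums, 6 libraries in 10 classes, among 13620 genes. The 60 sums share libraries and classes, so r is a description. Tgfb1 was most like Fli1 (r = 0.90), Ubash3b and Rap1b, Tgfb2 like Guf1 (r = 0.75), Zfpm2 and Plce1, and Tgfb3 like Slc6a9 (r = 0.84), Cald1 and Map1b. Tgfbr1 was most like Cd200r1 (r = 0.77), Plxnc1 and Ptprj, Tgfbr2 like Dennd4a (r = 0.88), Vsir and Selenop, and Tgfbr3 like Nedd4 (r = 0.89), Zfp507 and Ghr. Ltbp1 was most like Adamts12 (r = 0.85), Pard3 and Fam124a, and Ltbp2 like Mmp3 (r = 0.80), Duoxa1 and Mfap4. Smad3 was most like Map3k14 (r = 0.87), Adcy7 and Sh3bp2, and Smad7 like Pik3c2b (r = 0.84), Mecom and Eogt. No member was among the 3 most similar genes of another member.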

How the data were processed

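RNA of single nuclei was measured in 6 left ventricle libraries. The authors produced the deposited raw counts, UMIs per gene and barcode with no normalization, by aligning and counting reads with Cell Ranger 8.0.1 on the mouse genome GRCm39 (per the submitters' processing notes). The annotation and the treatment of intronic reads are not given in the sources used here. The tables held 0 columns without a sample. Genes are named by symbol, and no genome of that build was used. The members, lists and markers were chosen with earlier results of these data known.

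Nuclei with at least 500 UMIs, 300 genes and at most 5% mitochondrial UMIs were kept, and doublets predicted per library (3.68% to 6.45%) were removed with Scrublet in scanpy 1.11.5. Clustering used 2000 variable genes without the members, 30 principal components, 15 neighbours and Leiden resolution 1 (igraph 0.11.9). A cluster was named, with the ending -like, when at least 3 markers of a class were present in 10% of its nuclei at 2-fold the level elsewhere. Schwann-like (61) and unnamed nuclei (41) were not tested. Counts were summed per library and class, and the sums of the 3 groups were fitted together per class with edgeR 4.0.16 (filterByExpr, TMM, quasi-likelihood test, Benjamini-Hochberg adjustment over all genes of the class) in R 4.3.3. Differences between classes were tested as interactions with the class. Adjusted p values are from edgeR unless DESeq2 1.42.0 is named. The fits were tested on simulated data. Levels are CPM of the class, from 88207 to 14247423 UMIs per library and class. Intervals cover counting error only. Free RNA in droplets was not modelled.

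Log2 fold changes are printed for members with an unadjusted p under 0.05 or a call, and other members by their levels. From the pathway lists, called genes are named, and where none was called in fibroblast-like, cardiomyocyte-like or endothelial-like nuclei, the 2 genes with the smallest p. The 3 most similar genes were taken by Pearson correlation. The alternatives were DESeq2, no filter on low counts, a fit of only the 4 libraries compared, leaving out each library, no mitochondrial filter, resolution 0.5 and, chosen after seeing the data, leaving out the Cilp and Ryr3 clusters. A group left with 1 library was assumed to vary like the others.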

Additional observations from a re-analysis of the deposited data

Results flagged for a closer look

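A test of the difference between cell classes singled out 8 results, all in comparisons with R403Q-EMPA (edgeR, interaction of class and group, adjusted over all genes). Between cardiomyocyte-like and fibroblast-like nuclei, the R403Q-EMPA against WT-CD difference was lower in cardiomyocyte-like nuclei by -1.46 for Tgfb1 (adjusted p = 0.0429) and by -1.36 for Ltbp1 (adjusted p = 0.00282). Between endothelial-like and cardiomyocyte-like nuclei, the difference against R403Q-CD was -1.24 for Tgfb2 (adjusted p = 0.0443) and 0.98 for Smad3 (adjusted p = 0.0298), given as endothelial minus cardiomyocyte. Against WT-CD the same difference was -0.58 for Tgfbr1 (adjusted p = 0.0497), 0.84 for Tgfbr3 (adjusted p = 0.0422), 0.88 for Smad3 (adjusted p = 0.0302) and 0.91 for Ltbp1 (adjusted p = 0.00521). Of 6 fits that each left out a library, 1 to 6 called each of these differences. The Ryr3 cluster held 54.8% and 43.9% of cardiomyocyte-like nuclei in R403Q-EMPA and 5.75% to 24.6% in the other libraries, and its part was not tested in this fit. In the largest cardiomyocyte-like cluster alone, R403Q-EMPA and WT-CD did not overlap for Ltbp1 (125 and 122 against 197 and 252 CPM), Tgfbr1 (119 and 117 against 94.4 and 93.4 CPM), Tgfbr3 (365 and 343 against 429 and 492 CPM) and Smad3 (40.8 and 32.4 against 41.3 and 53.9 CPM, with 40.8 and 41.3 CPM the nearest), and they overlapped for Tgfb1 (7.17 and 2.96 against 7.53 and 5.08 CPM). Against R403Q-CD, Smad3 did not overlap there (40.8 and 32.4 against 60.9 and 52.7 CPM) and Tgfb2 did (36.9 and 27.0 against 22.5 and 32.1 CPM). These genes were chosen because the same nuclei had given called differences, so their overlaps are a description with no test. Over the 86 tested pairs of member and class, R403Q-EMPA was above WT-CD without overlap in 17 and below it in 22. No share over all genes is given for such overlaps.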

How the results depend on the processing

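Over the 58 member results with an unadjusted p under 0.05, 657 alternative values were computed. Of these, 586 kept their direction and side of the threshold, 23 lost and 46 gained a call, and 2 changed sign, both for Ltbp2 in endothelial-like nuclei without R403Q-EMPA replicate 1 (-0.52 against R403Q-CD and -1.33 against WT-CD, within -0.52 to 3.90 and -1.33 to 3.44 over the libraries left out). The causes were not tested.

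With no filter on low counts, called members numbered 1 for the mutation, 11 for R403Q-EMPA against R403Q-CD and 14 for R403Q-EMPA against WT-CD (0, 2 and 4 in the main analysis), called list genes 13, 64 and 79 (0, 3 and 8), and class differences 2, 8 and 12 (0, 2 and 6). Fibroblast Ltbp2 was among these calls. Against R403Q-CD its SE was 0.183 there, far below that of the main fit, while its R403Q-EMPA libraries had 224 and 32.3 CPM. DESeq2 called 7 members against WT-CD, and 9 and 13 list genes in the treated comparisons. A fit of the 4 libraries compared called 4 and 2 members and 11 and 3 list genes in the treated comparisons. Without the mitochondrial filter, 1 member was called against R403Q-CD, and 1, 0 and 13 list genes in the 3 comparisons. In that setting doublets of R403Q-EMPA replicate 1 were removed by an expected share, 10.1% of its nuclei, in place of the predicted calls. Without the Cilp and Ryr3 clusters, 2 members and 3 list genes were called against WT-CD.

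Leaving out 1 library gave 0 to 1 called members for the mutation (1 without WT-CD replicate 2), 0 to 4 against R403Q-CD (0 without either R403Q-CD library or R403Q-EMPA replicate 1, 4 without either WT-CD library) and 1 to 9 against WT-CD (1 without R403Q-EMPA replicate 1, 9 without WT-CD replicate 1). List genes ranged from 0 to 5 (5 without WT-CD replicate 2), 1 to 15 (1 without R403Q-CD replicate 2, 15 without R403Q-EMPA replicate 2) and 7 to 28 (28 without WT-CD replicate 1). Class differences ranged from 0 to 2, 0 to 6 and 1 to 14, with the highest counts for the treated comparisons without R403Q-EMPA replicate 2. The class with the highest level was the same for 10 of 10 genes at resolution 0.5 and for 8 of 10 without the mitochondrial filter, where Tgfb1 was highest in myeloid-like and Ltbp1 in endocardial-like nuclei. No paired analysis was possible because the labels number the libraries from 1 to 6 and give no number, animal, litter or batch that pairs libraries across groups. In the 3 smallest classes (27 to 108 nuclei per library), 3753 to 5038 genes passed the filter on low counts, against 14050 to 15067 in the 3 largest.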
